A study of Mus musculus with 2 samples.

Results

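The genes described here encode the glycoproteins that build the basement membrane of muscle, nerve and vessel, together with the receptor that anchors it to the cell. They are 10 of the 32287 features of the count files and were taken by symbol: the laminin chains *Lama2*, *Lama4*, *Lama5*, *Lamb1*, *Lamb2* and *Lamc1*, the nidogens *Nid1* and *Nid2*, perlecan (*Hspg2*) and dystroglycan (*Dag1*). All 10 had UMIs in both libraries. Their unique molecular identifiers (UMIs, each standing for 1 captured mRNA molecule) were summed over the cells of each class and library, and given per 1000000 UMIs that these cells held in total (CPM). The files hold no length scaling, so levels of different genes are set side by side on this UMI scale only. The part of gene length in these levels was not tested.

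The cells came from hind limb muscle of male mice aged 10 to 16 weeks, 7 days after a crush of the peroneal nerve (7 dpi), and were profiled by droplet-based scRNA-Seq. One library was made from muscle injected with goat anti-mouse IgG and the other from muscle injected with an antibody that neutralizes secreted phosphoprotein 1 (SPP1-nAb), at 2 μg in 10 μL at injury and every 2 days afterward. Mice were pooled, each condition had 1 library, and so every interval printed is a 95% interval of counting error and no test between the conditions was possible. These intervals do not show how far pools of mice given the same injection would differ. Both libraries share the injury, the injections and the digestion with collagenase, Dispase and hyaluronidase, and an uninjured or uninjected muscle was not analysed here.

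Several labels differ from the methods. The sample labels name the strain C57BL/6J and the tibialis anterior (TA) and gastrocnemius muscles, whereas the methods describe *S100GFP*-tg reporter mice, in which Schwann cells carry GFP, and injection of the TA. The titles call both libraries S100GFP-pos, whereas the protocol sorted GFP+ PI- and GFP- PI- cells, and in what ratio these were loaded is not given in the sources used here. The share of a class therefore describes a library and not the muscle. Muscle fiber-like cells were few, 112 in the IgG and 122 in the SPP1-nAb library. Intact muscle fibers are too large for droplets, and the cells were also strained and sorted before loading. The part of each step in the low number was not tested. These counts therefore say little about the basement membrane RNA of the fibers themselves.

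A basement membrane is a thin sheet of matrix on the surface of muscle fibers, Schwann cells, fat cells and endothelium. Laminins are its organizers: each is a trimer of an alpha, a beta and a gamma chain, wound together inside the cell and secreted whole, and the alpha chain sets which receptors it binds. Nidogens and perlecan link the laminin sheet to the network of type IV collagen, while dystroglycan at the cell surface binds the alpha chain outside and dystrophin or utrophin inside. In muscle, the trimer with the alpha-2 chain surrounds fibers and Schwann cells, and its loss causes a congenital muscular dystrophy with neuropathy. Alpha-4 and alpha-5 are the chains of vessel walls and of specialized sites such as the neuromuscular junction, where beta-2 replaces beta-1.

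The joint between laminin and nidogen is short enough to print. It lies in a single repeat of the gamma-1 chain and is shown because *Lamc1* and *Nid1*, the genes for its partners, are followed through all classes below. The stretch comes from the coding sequence of the canonical GENCODE M39 transcript, in exon 14 of 28 on the minus strand of GRCm39. The 7 codons for the residues of the nidogen-binding motif are in capitals, and which of them make contact is not shown. These residues occurred once in the translated coding sequence.
*Lamc1*, chr1:153119068-153119166, minus strand: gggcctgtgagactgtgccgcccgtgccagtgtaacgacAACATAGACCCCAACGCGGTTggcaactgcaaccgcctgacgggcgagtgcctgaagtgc
All 10 genes were matched to GRCm39 by Ensembl identifier and all are annotated as protein coding. Their spans differ widely, from 10795 bases for *Lamb2* (chr9:108356935-108367729) to 639723 bases for *Lama2* (chr10:26856032-27495754). *Lama2* and *Lama4* lie on the same chromosome, *Lama4* at chr10:38841141-38998403. *Dag1* (chr9:108081833-108152333) lies on the same chromosome as *Lamb2*.

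Filters and the removal of likely doublets left 21047 cells in the IgG and 22282 in the SPP1-nAb library, at median depths of 3658 and 4585 UMIs. Before these steps, 163 barcodes occurred in both libraries. The kept cells formed 32 clusters, in a grouping from which the members and the other basement membrane genes named below were left out. Named classes with at least 50 cells in each library numbered 10. Mononuclear phagocyte-like cells were the largest class, with 12379 cells (58.8%, 58.1 to 59.5) for IgG and 15625 (70.1%, 69.5 to 70.7) for SPP1-nAb. Mesenchymal-like cells, which had raised markers of fibro-adipogenic progenitors such as *Pdgfra* and *Clec3b*, numbered 2482 (11.8%, 11.4 to 12.2) and 1035 (4.65%, 4.37 to 4.93), and there were 2517 and 1744 satellite cell- or myoblast-like cells.

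Over all kept cells the basement membrane genes were at a lower level in the SPP1-nAb library. The 10 genes together held 71290 of the UMIs of the IgG library, or 868 CPM, and 49875 of the SPP1-nAb library, or 462 CPM, which is 1.88-fold lower (log2 ratio of SPP1-nAb over IgG -0.91, -0.93 to -0.89). *Nid1* showed the largest difference, from 166 to 71.7 CPM (-1.21, -1.25 to -1.17), and *Dag1* the smallest of the 9 genes whose interval lay below 0, from 119 to 81.0 CPM (-0.56, -0.60 to -0.52). *Lama5* stood apart, with 2.55 and 2.43 CPM (-0.07, -0.34 to 0.20).

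Most of this difference went with the make-up of the libraries. Mesenchymal-like cells held 69.2% (68.8 to 69.5) of the members' UMIs with IgG and 54.1% (53.6 to 54.5) with SPP1-nAb, and their share of all UMIs was 16.1% and 7.44%. Phagocyte-like cells, in which the members summed to only 55.0 and 51.3 CPM, had 62.4% and 74.8% of all UMIs. When the level of every class was held at its IgG value and only the shares of UMIs were taken from the SPP1-nAb library, the sum came to 497 CPM, a log2 ratio of -0.81. The same exchange gave 80.5 CPM for *Nid1*, 157 for *Lama2* against 149 measured, and 22.6 for *Lamb1* against 22.7 measured. For *Lama5*, which mesenchymal-like cells barely held, it gave 1.89 CPM, below the measured 2.43. A library-wide level mixes the number of cells of a type with the RNA in each, which cannot be told apart there, so the levels below are within classes.

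**Figure D1:**
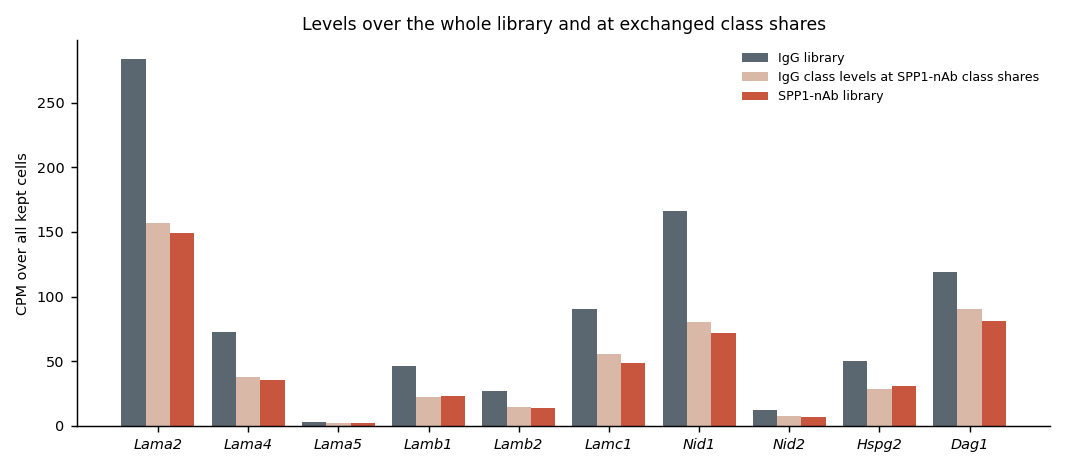
Levels of the 10 genes over all kept cells in CPM (bars from 0), in the IgG library, in the SPP1-nAb library, and with the IgG level of each class combined with the SPP1-nAb shares of UMIs. The middle bar lies close to the SPP1-nAb bar for most genes, as for *Lama2* with 157 against 149 CPM, and above it for *Dag1*, with 90.7 against 81.0.

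Of the alpha chains, *Lama2* was the most abundant and belonged to mesenchymal and muscle stem cell classes. Its level was 1215 CPM (1196 to 1234) in IgG and 1123 (1100 to 1147) in SPP1-nAb mesenchymal-like cells. Satellite cell- or myoblast-like cells followed with 912 (889 to 936) and 916 (893 to 940), and tenocyte-like cells with 401 (372 to 432) and 380 (349 to 413). These 3 classes kept the same order in both libraries, with no overlap of neighboring intervals. Schwann-like cells, at 156 (136 to 178) and 97.5 (83.4 to 113), could not be ordered against mural-like cells, at 134 (107 to 165) and 103 (76.2 to 135). Endothelial-like cells held almost none, with 3 UMIs in IgG and 13 in SPP1-nAb cells.

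*Lama4*, the alpha chain of capillary and peripheral nerve basement membranes, had a different distribution. It was at 374 CPM (364 to 385) and 332 (319 to 344) in mesenchymal-like cells, 351 (321 to 384) and 335 (308 to 363) in Schwann-like cells, and 264 (228 to 305) and 373 (330 to 420) in endothelial-like cells. The intervals of the first pair overlapped in IgG and those of all 3 classes overlapped in SPP1-nAb. In satellite cell- or myoblast-like cells, which were rich in *Lama2*, *Lama4* was at 5.46 (3.83 to 7.57) and 5.65 (3.98 to 7.79) CPM. *Lama4* was the only member whose highest class differed between the libraries, mesenchymal-like in IgG and endothelial-like in SPP1-nAb, and the other 9 kept theirs. Under the alternative settings 8 to 10 members kept their highest class.

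*Lama5*, the broadest laminin alpha chain of vessels and epithelia, was scarce here. Mural-like cells, the pericytes and smooth muscle of vessel walls, had the highest level at 65.3 CPM (47.0 to 88.2) and 84.2 (60.4 to 114), not separated from endothelial-like cells at 54.0 (38.2 to 74.2) and 49.0 (34.3 to 67.9). Satellite cell- or myoblast-like cells were lower, at 15.6 (12.8 to 19.0) and 20.6 (17.3 to 24.4), but because they were many they held 103 of 209 *Lama5* UMIs in the IgG library and 135 of 262 in the SPP1-nAb library. Mesenchymal-like cells, the main source of the other chains, had 4 and 3 UMIs of *Lama5* in all.

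The beta chains divided the classes in another way. *Lamb1* was highest in mesenchymal-like cells, at 261 CPM (253 to 270) and 258 (247 to 269), ahead of endothelial-like cells at 85.3 (65.1 to 110) and 147 (121 to 178). *Lamb2*, the beta chain of the neuromuscular junction and of vessel smooth muscle, was highest in mural-like cells at 127 (101 to 158) and 150 (118 to 189). Its level in mesenchymal-like cells, 120 (114 to 126) and 112 (105 to 120), and in tenocyte-like cells, 108 (93.5 to 125) and 97.8 (82.4 to 115), had overlapping intervals with each other and, for mesenchymal-like cells, with the mural-like value. Both chains were low in satellite cell- or myoblast-like cells, with 17.0 (14.0 to 20.5) and 18.2 (15.1 to 21.7) for *Lamb1* and 23.4 (19.8 to 27.4) and 23.8 (20.2 to 27.9) for *Lamb2*.

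*Lamc1*, the gamma chain that most laminins share, was found in every stromal class. Mesenchymal-like cells had 392 CPM (381 to 403) and 312 (300 to 324). The endothelial-like, mural-like, Schwann-like, satellite cell- or myoblast-like and tenocyte-like classes lay between 76.1 and 95.3 CPM in IgG and between 88.1 and 125 in SPP1-nAb, and the intervals of neighbors in the order of levels overlapped in both libraries. *Lamc1* was also the laminin gene that phagocyte-like cells held, at 23.1 (21.8 to 24.5) and 20.9 (19.9 to 21.9) CPM.

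The phagocyte level of *Lamc1* was not uniform. Among the clusters of that class it was highest in the cluster led by *Ccl4* and *Il10*, at 47.4 CPM in IgG and 45.4 in SPP1-nAb cells, and it was at 42.7 and 44.1 in the cluster led by *Lyve1* and *Fcna*. In the cluster led by *Serpinb2* and *Gm9733* it was at 3.78 and 8.76, the lowest in IgG, and in the cluster led by *Dcstamp* and *Rnase2a* at 10.1 and 8.23, the lowest in SPP1-nAb. In neutrophil-like cells, taken as a type that should lack these genes, *Lamc1* was at 5.77 (1.57 to 14.8) and 1.70 (0.350 to 4.96) CPM on 4 and 3 UMIs, and their median depth was 1235 and 1381 UMIs against 3915 and 4929 in phagocyte-like cells.

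Both nidogens were highest in mesenchymal-like cells, but *Nid1* outnumbered *Nid2* by far. *Nid1* was at 951 CPM (934 to 968) and 830 (810 to 850) there, and at 190 (170 to 211) and 175 (154 to 198) in tenocyte-like cells, the next class, whose interval overlapped that of endothelial-like cells at 173 (144 to 206) in SPP1-nAb. Mesenchymal-like cells held 92.7% of all *Nid1* UMIs in the IgG and 86.1% in the SPP1-nAb library. *Nid2* was at 50.8 (47.0 to 54.7) and 54.9 (49.9 to 60.2) in the same cells. In SPP1-nAb the latter was not separated from endothelial-like cells, at 38.1 (25.3 to 55.1).

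In phagocyte-like cells *Nid1* was near the background, and *Nid2* could not be placed clearly against it over the class. *Nid1*, at 1.83 (1.48 to 2.24) and 1.23 (0.996 to 1.49) CPM, did not exceed its level in neutrophil-like cells, 8.66 (3.18 to 18.9) and 2.26 (0.617 to 5.80), and is read as background. *Nid2* was at 3.16 (2.69 to 3.69) and 1.77 (1.49 to 2.08) CPM, below the upper bounds of 5.33 and 2.09 CPM in neutrophil-like cells, where it had 0 UMIs. A *Nid2* UMI was seen in 1.26% and 0.890% of phagocyte-like cells and in 0 of 545 and 0 of 1214 of the shallower neutrophil-like cells, which allows up to 0.550% and 0.247%. The cluster led by *Lyve1* and *Fcna* lay above these bounds, with 11.3 and 7.91 CPM of *Nid2*.

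Perlecan and dystroglycan were led by other classes. *Hspg2* was at 215 CPM (182 to 252) and 259 (223 to 298) in endothelial-like cells, 212 (205 to 220) and 223 (213 to 234) in mesenchymal-like cells, and 145 (126 to 166) and 173 (154 to 193) in Schwann-like cells, with the first pair overlapping. *Dag1* was the one member led by muscle stem and glial classes. It was at 840 (818 to 863) and 727 (707 to 748) in the satellite cell- or myoblast-like class, 624 (583 to 666) and 594 (558 to 631) in Schwann-like cells, and 194 (162 to 231) and 183 (147 to 225) in mural-like cells, with gaps between all 3 in both libraries. Mesenchymal-like cells, highest for most matrix genes, had 143 (136 to 149) and 109 (102 to 116).

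**Figure D2:**
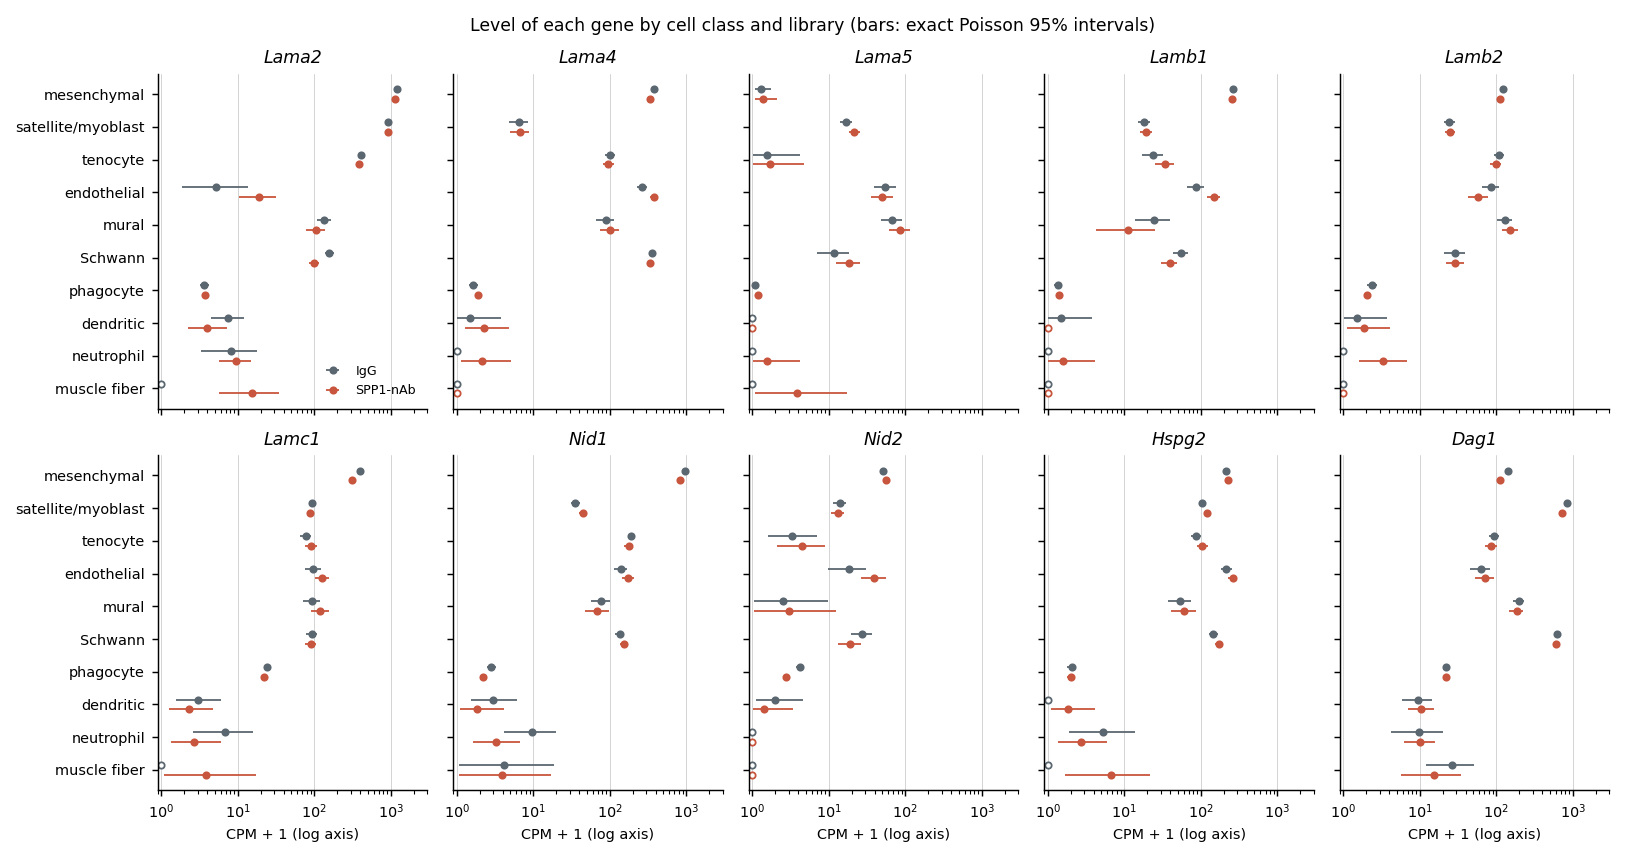
Level of each gene in the 10 named classes with at least 50 cells per library, as CPM + 1 on a log axis, with exact Poisson 95% intervals (bars) and open points for classes without a UMI. *Lama2* is highest in mesenchymal-like cells (1215 and 1123 CPM) and nearly absent from endothelial-like cells (4.27 and 17.7 CPM), whereas *Dag1* is highest in satellite cell- or myoblast-like cells (840 and 727 CPM).

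Set against one another, the member chains gave each class its own make-up. The shares are of the UMIs of member chains only, so other laminin chains such as *Lama3* were left out. *Lama3* had 240 and 124 UMIs in satellite cell- or myoblast-like cells, and was at 54.0 CPM in endothelial-like cells with IgG. The genes of the member alpha chains span 639723 bases (*Lama2*), 157263 (*Lama4*) and 49547 (*Lama5*), and the part of this in the shares was not tested. *Lama2* supplied 97.7% (97.3 to 98.1) and 97.2% (96.8 to 97.6) of the alpha-chain UMIs of satellite cell- or myoblast-like cells, and 76.4% (75.9 to 77.0) and 77.2% (76.4 to 77.9) of those of mesenchymal-like cells. *Lama4* supplied 81.9% (76.3 to 86.7) and 84.8% (80.4 to 88.6) in endothelial-like cells and 67.8% (64.3 to 71.2) and 74.5% (71.3 to 77.5) in Schwann-like cells. Only in mural-like cells did each of the 3 alpha chains exceed 20%, with 46.7% (39.4 to 54.2) *Lama2*, 30.4% (23.9 to 37.6) *Lama4* and 22.8% (17.0 to 29.6) *Lama5* in IgG, and 36.0%, 34.5% and 29.5% in SPP1-nAb.

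The mural-like mixture came from a pair of clusters with different chains. In the cluster led by *Kcnj8* and *Higd1b*, which are pericyte genes, *Lama2* was at 392 CPM in IgG and 298 in SPP1-nAb cells and *Lama5* at 23.3 and 46.3. In the cluster led by *Pln* and *Myh11*, which are smooth muscle genes, *Lama2* was at 4.66 and 14.9 and *Lama5* at 86.2 and 101. *Nid1* went with *Lama2*, at 205 and 179 in the first cluster and 9.32 and 17.9 in the second, and *Lamb1* with 60.6 and 33.1 in the first had 2 UMIs and 0 in the second. *Lamb2* was at 97.9 and 46.3 in the first and 142 and 197 in the second. The clusters held 94 and 60, and 102 and 64, cells, and a single gene in 1 of them rests on at most 88 UMIs per library. Over the whole class, the 10 cells with the most *Lama2* held 58.1% and 62.0% of its UMIs. For *Nid1* the same share was 60.4% and 69.7%, so these values rest largely on few cells.

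The beta make-up set mural-like and tenocyte-like cells apart from mesenchymal-like cells. *Lamb2* supplied 84.5% (75.8 to 91.1) and 93.6% (85.7 to 97.9) of beta-chain UMIs in mural-like cells and 82.8% (77.3 to 87.5) and 74.9% (68.1 to 80.9) in tenocyte-like cells. In mesenchymal-like cells *Lamb1* supplied 68.5% (67.2 to 69.8) and 69.7% (68.0 to 71.3). Endothelial-like cells had a different make-up in each library, with 50.4% (41.1 to 59.7) *Lamb1* in IgG and 72.0% (64.1 to 79.0) in SPP1-nAb.

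A laminin needs all 3 kinds of chain in 1 cell, and only the member chains were counted here. After thinning to 2000 UMIs, an alpha, a beta and the gamma chain were all seen in 24.4% (22.6 to 26.2) of 2277 mesenchymal-like cells of the IgG and in 21.1% (18.6 to 23.8) of 977 of the SPP1-nAb library. Before thinning the shares were 55.2% (53.3 to 57.2) and 68.3% (65.4 to 71.1), in the opposite order, at median depths of 4910 and 7925 UMIs. Thinning left out 205 and 58 shallower mesenchymal-like cells, and 1148 and 626 satellite cell- or myoblast-like cells. In satellite cell- or myoblast-like cells 0.511% (0.206 to 1.05) of 1369 and 1.34% (0.753 to 2.20) of 1118 thinned cells had all 3. An alpha chain was seen in 72.7% (70.2 to 75.0) and 74.8% (72.1 to 77.3) of them. A beta chain was seen in 7.67% (6.32 to 9.21) and 9.03% (7.42 to 10.9), and *Lamc1* in 16.7% (14.8 to 18.8) and 15.9% (13.8 to 18.2). Whether the 3 kinds met in a cell less often than these single shares allow was not tested. Before thinning 2.11% (1.58 to 2.75) and 4.64% (3.71 to 5.74) had all 3. Of neutrophil-like cells, 11 and 86 were deep enough for thinning and 0 had all 3, which allows shares of up to 27.3% and 3.49%. Before thinning it was 0 of 545 and 0 of 1214, which allows up to 0.550% and 0.247%.

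**Figure D3:**
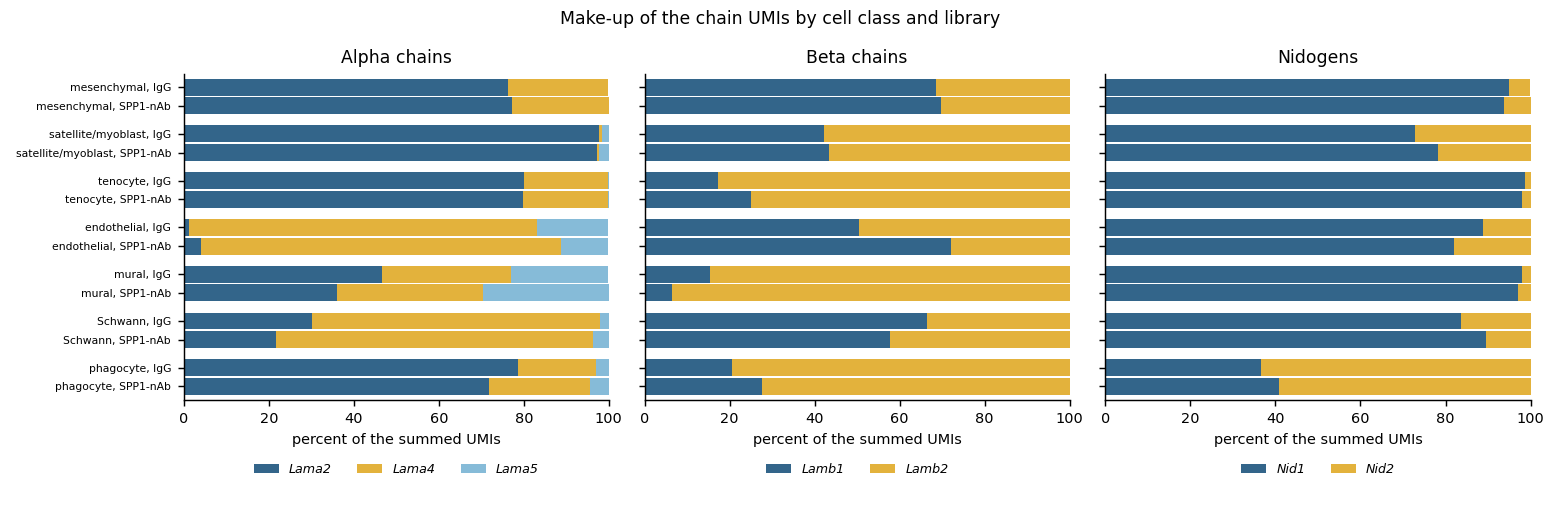
Percent of the summed UMIs of the member alpha chains, member beta chains and nidogens that each gene supplied, per class and library (bars from 0 to 100%). Other laminin chains were left out. *Lama2* fills 97.7% and 97.2% of the alpha bar of satellite cell- or myoblast-like cells, *Lama4* 81.9% and 84.8% of the endothelial-like bar, and *Lamb2* 84.5% and 93.6% of the mural-like beta bar.

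Within classes the libraries differed far less than over all cells. Ratios were read for genes with at least 100 UMIs over both libraries and at least 20 cells with a UMI in the class, and a difference past 1.5-fold in either direction was counted beside the percent of all such genes past the same fold. In Schwann-like cells 1 of 7 members was past 1.5-fold, against 3.97% of 5185 genes, and it was *Lama2*, the alpha chain of the endoneurial basement membrane. *Lama2* was at 156 CPM in IgG and 97.5 in SPP1-nAb Schwann-like cells, 1.60-fold lower (log2 ratio -0.68, -0.98 to -0.39). The other alpha chain there, *Lama4*, was at 351 and 335 CPM (-0.07, -0.24 to 0.11), and *Dag1* at 624 and 594 (-0.07, -0.20 to 0.06). *Lamb1* was at 54.2 and 38.2 (-0.50, -1.0 to -0.01), and *Hspg2* at 145 and 173 (0.25, -0.01 to 0.52).

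The *Lama2* level was lower in both Schwann-like clusters, past 1.5-fold only in the smaller. It was at 172 and 123 CPM (-0.49, -0.85 to -0.12) in the larger of them, of 277 and 319 cells, and at 137 and 63.1 (-1.12, -1.66 to -0.60) in the smaller, led by *Gm42825* and *Klk9*. In the second cluster *Hspg2* was higher, at 136 and 204 (0.59, 0.20 to 0.98), and in the first it was not, at 153 and 150 (-0.03, -0.39 to 0.33). Among Schwann-like cells deep enough for thinning to 2000 UMIs the ratio of *Lama2* was -0.52, inside 1.5-fold. This left out 148 of 505 and 101 of 529 cells. After thinning a *Lama2* UMI was seen in 17.6% (13.8 to 22.0) and 14.0% (10.9 to 17.7) of cells, with overlapping intervals. The 10 cells with the most *Lama2* held 26.6% and 29.8% of its UMIs in the class. Without the cluster led by *Gm42825* and *Klk9* the ratio was -0.49. The 5 erythroid markers, of which 5 and 4 were detected, summed to 470 and 29.1 CPM in Schwann-like cells, and the 9 mesenchymal markers, of which 9 and 8 were detected, to 576 and 488. The 8 satellite cell markers (7 and 4 detected) were at 21.1 and 7.41, the 9 mural markers (7 and 6 detected) at 40.1 and 18.2, and the 10 phagocyte markers, all detected, at 438 and 601. Their part in the result was not tested.

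In endothelial-like cells 5 of 6 members had a higher value in the SPP1-nAb library. The sum of all 10 genes was 1017 CPM in IgG and 1309 in SPP1-nAb cells (0.36, 0.22 to 0.51), and the median log2 ratio of the 6 was 0.37 beside 0.01 over 2770 genes. *Lamb1* was the 1 of 6 past 1.5-fold, against 6.50% of all genes, at 85.3 and 147 CPM (0.79, 0.32 to 1.27). *Lama4* was at 264 and 373 (0.50, 0.22 to 0.77), *Lamc1* at 95.3 and 125 (0.39, -0.07 to 0.87), *Nid1* at 137 and 173 (0.34, -0.05 to 0.74) and *Hspg2* at 215 and 259 (0.27, -0.05 to 0.59). Only *Lamb2* had a lower value, 83.9 and 57.2 (-0.55, -1.16 to 0.04).

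This class was shallow, with median depths of 1180 and 1305 UMIs in 439 and 358 cells. The 10 cells with the most *Lamb1* held 45.0% and 37.0% of its UMIs. Among the 83 and 105 cells deep enough for thinning the *Lamb1* ratio was 0.19, whereas it stayed past 1.5-fold under the other 12 of 13 alternatives. The 5 erythroid markers were at 3709 and 57.2 CPM in these cells, the 10 phagocyte markers at 557 and 831, the 9 mesenchymal markers at 424 (8 detected) and 361 (9 detected), and the 9 mural markers at 1145 and 797. Their part in the result was not tested.

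In mesenchymal-like cells, with the most UMIs behind each ratio read except that of *Dag1*, 0 of 9 members was past 1.5-fold against 12.2% of 10481 genes. The sum was 3719 CPM in IgG and 3354 in SPP1-nAb cells (-0.15, -0.17 to -0.13), and the members' median was -0.11 beside -0.02 over all genes. The largest differences were in *Dag1*, at 143 and 109 (-0.39, -0.51 to -0.27), and *Lamc1*, at 392 and 312 (-0.33, -0.40 to -0.26). *Lama2* (-0.11, -0.15 to -0.08), *Lama4* (-0.17, -0.24 to -0.11) and *Nid1* (-0.20, -0.24 to -0.15) were lower by less, and *Lamb1* was at 261 and 258 (-0.02, -0.10 to 0.06). The intervals of *Lamb2*, *Nid2* and *Hspg2* also included 0.

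The clusters of this class did not all follow. In the largest, led by *Gdf10* and *Inmt*, *Lama2* was at 843 and 861 CPM (0.03, -0.02 to 0.08), *Lamb1* at 175 and 220 (0.33, 0.22 to 0.43) and *Lamc1* at 334 and 282 (-0.25, -0.33 to -0.16). In the cluster led by *Kcnb2* and *Fetub*, which had far more of each, *Lama2* was at 2398 and 1925 (-0.32, -0.38 to -0.25), *Lamb1* at 613 and 441 (-0.48, -0.61 to -0.34) and *Lamc1* at 616 and 449 (-0.46, -0.59 to -0.33). *Lamb1* was thus higher in 1 cluster and lower in another, and its class ratio ranged from -0.42 to 0.25 over the alternatives.

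The small cluster led by *A2m* and *Tenm2*, of 305 and 89 cells, had larger differences. There *Lama2* was at 1656 and 991 CPM (-0.74, -0.92 to -0.57), *Nid1* at 777 and 451 (-0.78, -1.05 to -0.53) and *Lamc1* at 361 and 215 (-0.75, -1.14 to -0.38). *Lama4*, at 291 and 301 (0.04, -0.30 to 0.38), and *Hspg2*, at 253 and 239 (-0.08, -0.47 to 0.29), had intervals around 0 in the same cells. *Lamc1* was the only member whose interval lay below 0 in each of the 4 mesenchymal-like clusters, with the largest difference, 575 and 300 (-0.94, -1.45 to -0.43), in the 58 and 54 cells led by *Opcml* and *Sdk1*.

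Satellite cell- or myoblast-like cells had 0 of 9 members past 1.5-fold, against 11.6% of 8833 genes, and a median of 0.03 beside 0.05. *Lama2* was at 912 and 916 CPM (0.01, -0.05 to 0.06). *Dag1* was lower, at 840 and 727 (-0.21, -0.26 to -0.15), while *Nid1*, at 34.5 and 43.5 (0.34, 0.08 to 0.59), *Hspg2*, at 103 and 118 (0.20, 0.05 to 0.35), and *Lama5*, at 15.6 and 20.6 (0.40, 0.02 to 0.78), were higher. Over 16 alternatives the ratio ranged from -0.24 to 0.68 for *Nid1*, from -0.14 to 0.39 for *Hspg2* and from -0.19 to 0.73 for *Lama5*. Each of these kept its sign in 15 of the 16. With the level in neutrophil-like cells subtracted, the *Nid1* ratio was 0.68. That level, 8.66 (3.18 to 18.9) and 2.26 (0.617 to 5.80) CPM, rested on only 6 and 4 UMIs. The clusters of the class differed in opposite directions in *Lama2*.

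In the cluster led by *Chrdl2* and *Nppc*, with *Calcr* and *Pax7* among its leading genes, *Lama2* was at 832 CPM in IgG and 931 in SPP1-nAb cells (0.16, 0.10 to 0.23) and *Nid1* at 35.5 and 56.1 (0.66, 0.36 to 0.96). In the cluster led by *Myog*, a regulator of myoblast differentiation, *Lama2* was at 919 and 544 (-0.76, -0.86 to -0.65) and *Dag1* at 968 and 643 (-0.59, -0.69 to -0.49). All 10 members had a lower value there, but the intervals of *Lama4*, *Lama5*, *Lamc1*, *Nid1* and *Hspg2* included 0, and *Lama4* had only 10 and 6 UMIs. The share of all genes that were lower in this cluster is not given here. *Dag1* in the first cluster was at 837 and 845 (0.01, -0.05 to 0.08). The summed muscle fiber markers of the class were at 86.8 and 306 CPM, with 7 of 7 detected in both libraries, and their part in the result was not tested.

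The third cluster, led by *Hs6st3* and *Tenm4*, had the highest *Lama2* level of the class, 2114 and 3040 CPM (0.52, 0.39 to 0.66), and low *Dag1*, 257 and 138 (-0.90, -1.42 to -0.38). Its cells had a median of 1040 UMIs, 5.99% and 5.38% of them mitochondrial against 3.34% and 2.88% in the *Chrdl2* cluster. The 10 leading genes of the third cluster had a median span of 508197 bases, against 22320 in the *Chrdl2* cluster. The mesenchymal-like cluster with the most *Lama2*, led by *Opcml* and *Sdk1* (2495 and 3135 CPM), was likewise led by long genes, with a median span of 251258 bases against 9017 in the *Gdf10* cluster. *Lama2* has the longest span of the 10 members, and the part of gene length in its level there was not tested.

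**Figure D4:**
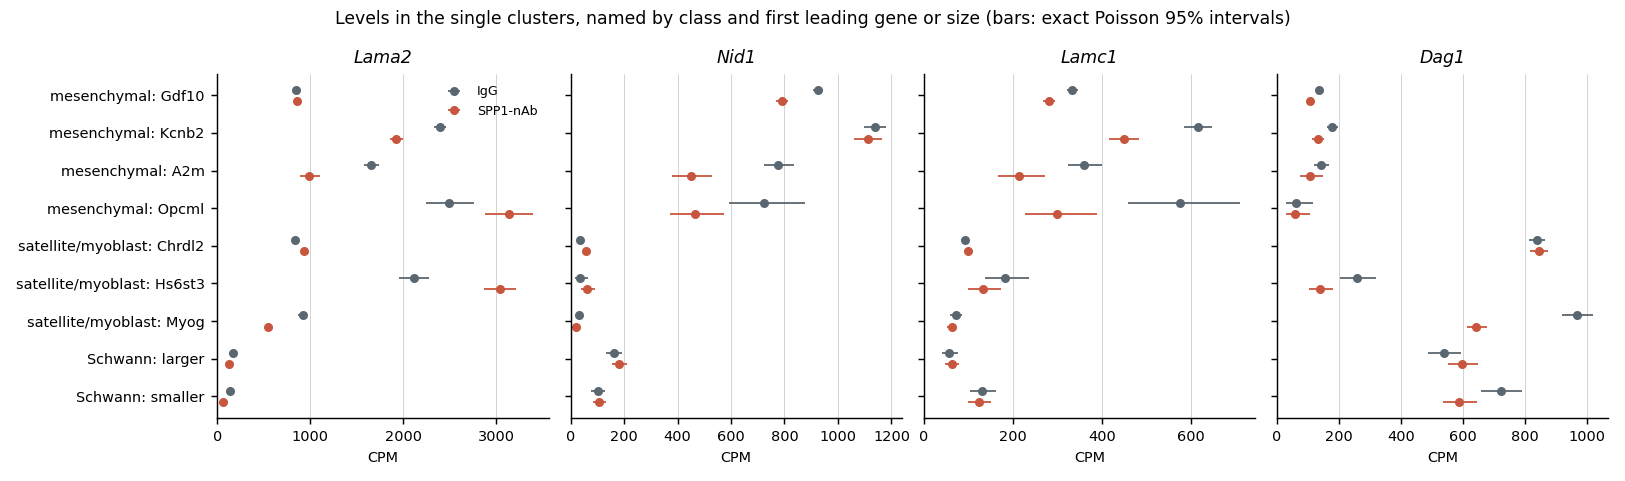
Levels of *Lama2*, *Nid1*, *Lamc1* and *Dag1* in CPM (axes from 0) in the single mesenchymal-like, satellite cell- or myoblast-like and Schwann-like clusters, named by their first leading gene or, for Schwann-like cells, by size, with exact Poisson 95% intervals. *Lama2* is lower in SPP1-nAb cells of the *Myog* cluster (919 and 544 CPM) and higher in those of the *Hs6st3* cluster (2114 and 3040 CPM), while the class is at 912 and 916 CPM.

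Mural-like and tenocyte-like cells had no difference that was detectable at this depth. In mural-like cells 0 of 5 members was past 1.5-fold against 5.69% of 2022 genes, with 56 to 125 UMIs of each gene in the IgG library. Each of the 5 intervals included 0, from *Lama2* at 134 and 103 CPM (-0.38, -0.91 to 0.14) to *Lamc1* at 91.7 and 119 (0.38, -0.17 to 0.93). The *Lama2* ratio turned to 0.23 with classes from a marker gate on each cell and to 0.54 with thinning to 2000 UMIs. Thinning, which left out 55 of 196 and 27 of 124 cells, moved that of *Lama4* from 0.18 to 0.79. In tenocyte-like cells it was 0 of 7 against 10.1% of 4563 genes, and the 7 intervals again included 0, among them *Lama2* (-0.08, -0.24 to 0.08) and *Nid1* (-0.12, -0.36 to 0.12).

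In phagocyte-like cells 1 of 8 members was past 1.5-fold against 11.2% of 12418 genes. *Nid2* was at 3.16 CPM in IgG and 1.77 in SPP1-nAb cells (-0.84, -1.17 to -0.50). These levels lay below the upper bounds that 0 UMIs in the shallower neutrophil-like cells allow. The unthinned share of cells with a UMI lay above its limits, but it was compared at unequal depth and cannot place *Nid2* against the background. *Dag1*, with 1061 and 1698 UMIs (0.02, -0.09 to 0.13), and *Lamc1*, at 23.1 and 20.9 (-0.15, -0.25 to -0.04), were within 1.5-fold over the class. Both were past 1.5-fold higher in the cluster led by *Cxcl3* and *Arg1*, of 1610 and 3442 cells, *Lamc1* at 11.5 and 18.7 (0.70, 0.38 to 1.04) and *Dag1* at 13.6 and 21.2 (0.64, 0.34 to 0.95). *Dag1* was also past 1.5-fold higher in the cluster led by *Gm9733* and *Sirpb1c*, at 14.2 and 21.6 (0.61, 0.08 to 1.16). In the cluster led by *Ccl4* and *Il10* it was lower, at 25.3 and 18.4 (-0.46, -0.90 to -0.02). The share of all genes past 1.5-fold in these clusters is not given here. The class and the *Cxcl3* cluster thus differed in opposite directions in *Lamc1*. Inside the cluster led by *Lyve1* and *Fcna*, which had the most *Nid2*, its levels were 11.3 and 7.91 (-0.51, -0.95 to -0.08), inside 1.5-fold, and 2589 of the 12379 phagocyte-like cells with IgG but 2279 of the 15625 with SPP1-nAb belonged to it.

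**Figure D5:**
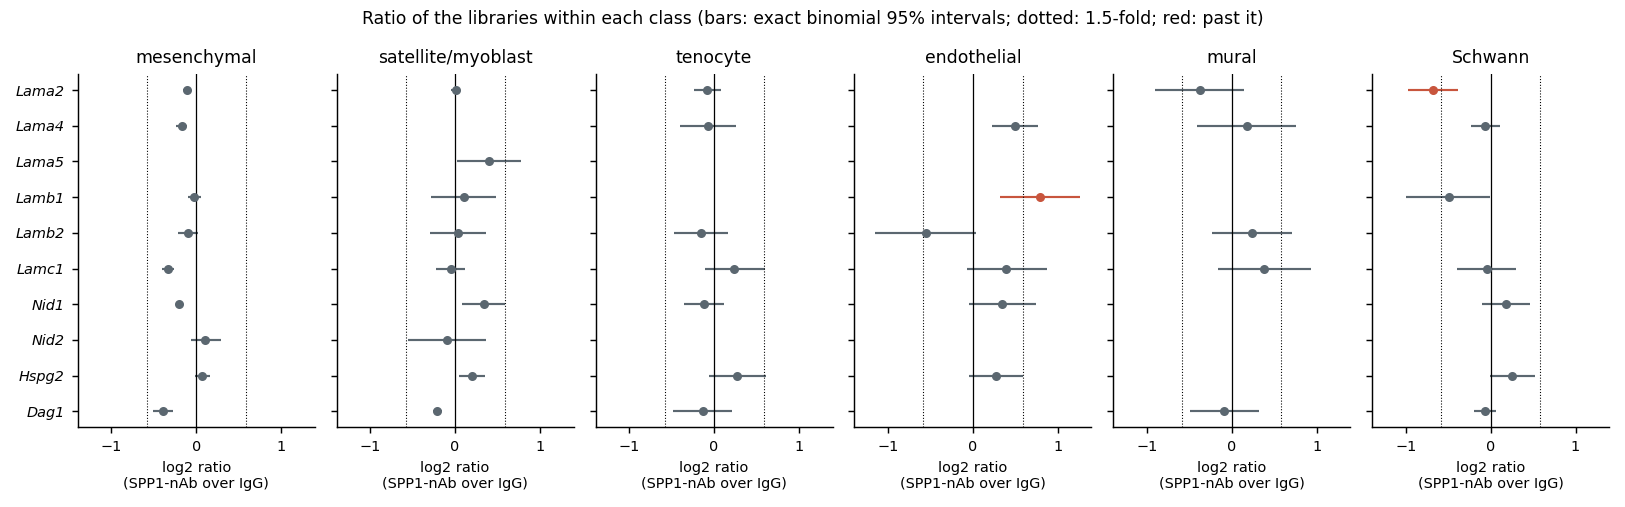
Log2 ratio of SPP1-nAb over IgG for each gene with at least 100 UMIs in the mesenchymal-like, satellite cell- or myoblast-like, tenocyte-like, endothelial-like, mural-like and Schwann-like classes, with exact binomial 95% intervals (bars) and dotted lines at 1.5-fold. *Lama2* in Schwann-like cells (-0.68) and *Lamb1* in endothelial-like cells (0.79) are the values past the lines in these classes.

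The rest of the basement membrane pathway was read in 7 lists of 75 genes. Of the type IV and related collagens, 5 of 8 were past 1.5-fold in mesenchymal-like cells, all lower in SPP1-nAb cells, against 6.51% of all genes lower by as much, with a median of -1.27 beside -0.02 over all genes. *Col4a6* was at 11.2 and 2.12 CPM (-2.41, -3.23 to -1.68), *Col4a3* at 22.8 and 4.60 (-2.31, -2.84 to -1.81) and *Col4a5* at 125 and 36.8 (-1.77, -1.95 to -1.59), and these encode the minor alpha chains of the network to which nidogens and perlecan tie laminin. *Col4a5* was lower in each of the 4 clusters of the class, by -1.61 in the largest. *Col4a3* was higher in the cluster led by *A2m* and *Tenm2* (1.35, on 6 and 5 UMIs) and lower in the others. *Col4a6* had 17 UMIs in SPP1-nAb cells of the class, 14 of them in the largest cluster. The rest of the 8 collagens were within 1.5-fold, as were the laminin and nidogen genes of the same cells. Values of the major type IV chains *Col4a1* and *Col4a2* in this class are not reported here.

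Among other components, *Vwa1*, a perlecan-binding protein, was lower in mesenchymal-like cells (38.2 and 13.8 CPM, -1.47, -1.78 to -1.17) and *Agrn*, the organizer of the neuromuscular junction, higher (4.98 and 11.8, 1.25, 0.78 to 1.72), 1 of 10 read in each direction, against 12.2% of all genes in either. In the largest cluster, led by *Gdf10* and *Inmt*, *Vwa1* was at 12.1 and 9.20 (-0.39), inside 1.5-fold. It was at -1.67 in the cluster led by *Kcnb2* and *Fetub* and at -2.21, on 170 and 12 UMIs, in that led by *A2m* and *Tenm2*. Of 7 laminin receptors read, *Itga7* was higher (3.02 and 8.09, 1.42, 0.83 to 2.03). Of 11 matrix enzymes and inhibitors read, *Mmp11* (17.3 and 34.1) and *Mmp19* (63.1 and 97.4) were higher and *Timp3*, an inhibitor of metalloproteinases, was lower (416 and 222, -0.91, -0.99 to -0.83). *Timp3* was lower in 3 of the 4 clusters and higher in the cluster led by *Kcnb2* and *Fetub* (0.44), and without the cluster led by *Gdf10* and *Inmt* the log2 ratio of the class was -0.08. Without that cluster those of *Mmp11* and *Mmp19* were 0.53 and 0.50, inside 1.5-fold, and *Mmp19* was at -0.16 in the cluster led by *A2m* and *Tenm2*. The dystrophin-associated complex and the enzymes that glycosylate dystroglycan had 0 of 9 and 0 of 11 past 1.5-fold, beside the same 12.2%. The 9 mesenchymal markers, all detected, summed to 31502 and 22090 CPM in this class, the 6 tenocyte markers, all detected, to 532 and 862, the 10 phagocyte markers, all detected, to 193 and 296, and the 9 mural markers, of which 9 and 8 were detected, to 81.9 and 156. Their part in these differences was not tested.

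In endothelial-like cells, *Col18a1* (59.7 and 112 CPM, 0.90, 0.35 to 1.48) and *Col15a1* (156 and 246, 0.66, 0.31 to 1.01), collagens of the vessel basement membrane, were higher, as was *Vwa1* (55.5 and 88.5, 0.67, 0.08 to 1.29). These were 2 of 4 collagens and 1 of 5 other components read, and none of the genes read in the other lists. Of all genes in the class, 2.92% were higher by as much. In Schwann-like cells *Col4a2* was lower (87.3 and 52.5, -0.73, -1.14 to -0.33) and *Bmp1*, a protease of procollagens, higher (88.7 and 148, 0.74, 0.42 to 1.05). These were 1 of 4 collagens and 1 of 9 enzymes and inhibitors read. In the other lists it was 0 of 8 components, 0 of 6 receptors, 0 of 9 genes of the dystrophin-associated complex and 0 of 3 glycosylation genes. Of all genes in the class, 3.97% were past 1.5-fold in either direction. In mural-like cells *Col18a1* was higher (110 and 175) and *Rxylt1*, of the dystroglycan glycosylation list, lower (118 and 71.9). These were 1 of 4 collagens and 1 of 2 glycosylation genes read, and none of the genes read in the other lists. Of all genes in the class, 5.69% were past 1.5-fold in either direction. Without the cluster led by *Pln* and *Myh11* the *Col18a1* ratio was 0.57, and without that led by *Kcnj8* and *Higd1b* the *Rxylt1* ratio was -0.26, both inside 1.5-fold.

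In satellite cell- or myoblast-like cells *Lama3*, an alpha chain outside the members, was lower (36.4 and 18.9 CPM, -0.94, -1.27 to -0.63), as were *Vwa1* (31.9 and 19.8), *Fbln2* (12.1 and 7.79), the co-receptor *Sdc4* (1339 and 838), the gelatinase *Mmp2* (32.8 and 7.94) and *Adamts1* (226 and 144). *Ecm1* (13.1 and 24.6) and *Mmp19* (12.4 and 27.6) were higher. Past 1.5-fold were 1 of 2 other laminin chains, 1 of 6 receptors and 1 of 11 genes of the dystrophin-associated complex. Of 7 other components 1 was higher and 2 lower, and of 9 enzymes and inhibitors 1 was higher and 2 lower. It was 0 of 5 collagens and 0 of 8 glycosylation genes, against 11.6% of all genes in either direction. Several of the named differences rested on 1 cluster. Without the cluster led by *Myog* the ratios of *Vwa1* (-0.45), *Sdc4* (-0.52) and *Adamts1* (-0.45) were inside 1.5-fold, and without that led by *Chrdl2* and *Nppc* those of *Fbln2* (-0.36) and *Sdc4* (-0.27). In the *Chrdl2* cluster itself, with 94.3% of its IgG UMIs, *Vwa1* was at -0.39. The 9 mesenchymal markers, all detected, summed to 698 and 507 CPM in this class, and their part in these differences was not tested. In tenocyte-like cells the major type IV chains *Col4a1* (175 and 279) and *Col4a2* (156 and 265) were higher with *Mmp14* (216 and 445), *Ctsb* (403 and 697) and *Adamts1* (172 and 262), while the 5 erythroid markers (5 and 4 detected) were at 947 and 20.5, the 10 phagocyte markers, all detected, at 291 and 537, and the 9 mesenchymal markers, all detected, at 33414 and 23961. The tenocyte-like genes named were 2 of 3 collagens and 3 of 8 enzymes and inhibitors read, and none of those read in the other lists. Of all genes in the class, 6.29% were higher by as much. *Ctsb* was highest in phagocyte-like cells, at 3145 and 3809 CPM. The part of the markers' cells in these differences was not tested.

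Across the 10 classes in both libraries, which are 20 points from 2 libraries, the genes most like each member were found among 11696 genes by the correlation of log2(CPM + 1), given as a description. *Lamb1* was closest to another member, *Nid1* (r = 0.962), and *Nid1* to *Sparc* (r = 0.969), a collagen-binding matrix protein, to *Cdr2l* (r = 0.968) and to *Lamb1*. *Lama5* was least matched by other genes, closest to *Sorbs2* (r = 0.911), *Bcam* (r = 0.908), the surface receptor for the alpha-5 chain, and *Arhgef7* (r = 0.906). *Hspg2* was closest to *Gulp1* (r = 0.977), *Cdc42bpa* (r = 0.971) and *Pxdn* (r = 0.971), a peroxidase that cross-links type IV collagen.

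*Lama2* was closest to *Rgma* (r = 0.957), *Rbms3* and *B3galt1* (both r = 0.956), *Lama4* to *Atp8b1* (r = 0.972), *Fbxl7* (r = 0.960) and *Apbb2* (r = 0.953), and *Lamb2* to *Cbx6* (r = 0.982), *Triqk* and *Prickle2* (both r = 0.976). *Lamc1* was closest to *Zfp948* (r = 0.953), *Mill2* and *Ctdsp2* (both r = 0.952), *Nid2* to *Acvr2a* (r = 0.958), *Thsd7a* and *P4ha2* (both r = 0.933), and *Dag1* to *Nrbp2* (r = 0.954), *Bcl7a* (r = 0.946) and *Bdnf* (r = 0.941). Among the members themselves, *Lama2* and *Lama5* had the lowest correlation (r = 0.27), and *Lamb1* and *Nid1* the highest (r = 0.96).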

How the data were processed

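Single cells from 2 libraries, IgG and SPP1-nAb, were analysed from raw UMI counts per gene and barcode, which the authors deposited after alignment and counting with Cell Ranger (version 8.0.0 and GRCm39 in the submitters' processing notes, 9.0.1 in the file header). The removal of ambient RNA, the filters and the integration described in the methods came after these counts. Libraries held 23779 and 25069 barcodes with 97607674 and 127719916 UMIs. Barcodes were required to have over 200 detected genes and a mitochondrial share of UMIs under 10%, and the 10% with the highest doublet scores (2 simulated doublets per barcode, 50 neighbors) were removed. Counts were scaled to 10000, 2000 variable genes and 30 principal components were taken, libraries were integrated with Harmony (theta 2, written in numpy), and cells were clustered with Leiden (20 neighbors, resolution 1). Members, list genes and *Spp1* could not be variable genes. Naming a cluster took at least 3 markers raised 1.5-fold in at least 20% of its cells, with at least 1 among its 25 leading genes or at least 5 raised. Clusters of phagocytes without raised markers were named from at least 8 detected markers. These limits were set after the clusters' marker genes had been seen.

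Levels are CPM with exact Poisson 95% intervals, and shares and log2 ratios have exact binomial (Clopper-Pearson) intervals. All cover counting error only, and no test was run because each condition had 1 library. A share of 0 was limited by 3 counts. Beside the 10 members, list genes past 1.5-fold are named, at most 3 per list, class and direction, and the 3 genes most like each member (at least 500 UMIs). Some list genes and leading genes are not reported here. The members and lists were chosen with earlier results of these data known. On simulated Poisson counts, 95.2% (Schwann-like) to 96.1% (endothelial-like and mural-like) of the true ratios fell inside their intervals, over planted and unchanged genes together. These counts followed the model that the intervals assume, without spread between cells or pools, so this checks the calculation only. Python 3.11.15, numpy 2.4.6, scipy 1.17.1, pandas 2.3.3, scikit-learn 1.9.0, igraph 0.11.9, leidenalg 0.10.2, biopython 1.88 and matplotlib 3.10.9 were used.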

Additional observations from a re-analysis of the deposited data

Results flagged for a closer look

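For 3 members the log2 ratio of SPP1-nAb over IgG had opposite signs in a pair of classes, with counting intervals on opposite sides of 0. *Lama4* was at 0.50 (0.22 to 0.77) in endothelial-like and -0.17 (-0.24 to -0.11) in mesenchymal-like cells. *Lamb1* was at 0.79 (0.32 to 1.27) in endothelial-like and -0.50 (-1.0 to -0.01) in Schwann-like cells. *Nid1* was at 0.34 (0.08 to 0.59) in satellite cell- or myoblast-like and -0.20 (-0.24 to -0.15) in mesenchymal-like cells. Over the alternatives the first of these *Nid1* ratios ranged from -0.24 to 0.68, so its sign did not always hold. With 1 library per condition, the difference was not tested for any of them.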

How the results depend on the processing

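Under other settings, 83 values of the class medians and of the count of members with the same highest class moved by less than their interval or 1.5 times. The 4 others came from leaving out 1 cluster, an alternative chosen after seeing the data, and the cause was not tested. The mesenchymal-like median was -0.22 without the cluster led by *Gdf10* and *Inmt*, the satellite cell- or myoblast-like median -0.31 without the cluster led by *Chrdl2* and *Nppc* and 0.37 without that led by *Myog*, and the mural-like median -0.40 without that led by *Pln* and *Myh11*, where 1 member remained above the minimum. The endothelial-like median stayed between 0.23 and 0.47, and the Schwann-like median between -0.17 and 0.07. Of the ratios of single members, 486 moved by less than their interval and 50 by more. Of the classes compared, endothelial-like and mural-like cells had the fewest UMIs in all, and in them 6 and 5 members could be read. Endothelial-like cells also had the lowest median depth of these classes, 1180 and 1305 UMIs. No paired analysis was possible because each condition had 1 library, and for the same reason no replicate could be left out.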
